A study of Homo sapiens with 6 samples.

Results

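The MYC, MAX and MXD network was examined as 9 genes of the 27381 in the deposited table: MYC, MYCN, MYCL, MAX, MXD1, MXD3, MXD4, MNT and MLX, matched by symbol. RNA had been sequenced from DU145, a human metastatic castration-resistant prostate cancer (CRPC) cell line. The labels give 2 libraries to each of 3 conditions: a scrambled control (Scr), CD24 knocked out (CD24 KO) and RCC2 knocked out (RCC2 KO). By the study's methods, all 3 kinds of cells received Cas9 with an sgRNA (without a specific target in Scr), were sorted for GFP and were grown out as clones. The labels do not say which clone a library came from. The values are FPKM, fragment counts divided by transcript length and by library size, and the table lists a single value for a gene in each condition. With no values per library, neither an SD nor a test was possible, and no difference below has a replicate check. CD24 KO and RCC2 KO below stand for the libraries that carry these labels. The RCC2 KO column is named exactly as the first RCC2 KO library is labelled, which leaves unclear whether 1 library or both went into it.

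The proteins of this network carry a basic helix-loop-helix leucine zipper, with which they pair and bind the E-box, CACGTG, in DNA. MYC, MYCN and MYCL activate transcription as partners of MAX, and MYC drives genes of ribosome assembly, nucleotide synthesis and cell growth. MXD1, MXD3, MXD4 and MNT compete for MAX and for the same E-boxes, and repress them through the SIN3 corepressor. MLX is the parallel partner of MondoA (MLXIP) and ChREBP (MLXIPL), which sense glucose metabolites. MYC is also a textbook target of β-catenin, the pathway that the study followed in these knockouts.

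The labels were not borne out by the RNA of the genes they name: RCC2 had 37.8 FPKM in Scr against 41.8 FPKM in the RCC2 KO column, and CD24 had 93.2 FPKM in Scr against 309 FPKM in the CD24 KO column. In the other knockout RCC2 stood at 14.2 FPKM, its lowest value, and CD24 at 214 FPKM. The CD24 value is less certain, because the table places the gene on chromosome Y over a wide stretch, from 21034387 to 21438350. By the study's methods, the knockout clones had been selected by sequencing of the genomic DNA. The study also checked the DU145 clones by Western blotting and flow cytometry, which measure protein, whereas the values here are RNA. All directions given here rest on these labels. The columns sum to between 388764 FPKM (CD24 KO) and 451272 FPKM (Scr), and the depth behind them is unknown. The CD24 KO column stood apart in RNR2, which was listed at 0 there and at 26884 FPKM in Scr and 22704 FPKM in RCC2 KO. Without RNR2 the sums were 424388 FPKM for Scr, 388764 for CD24 KO and 424301 for RCC2 KO. The epithelial markers KRT8, KRT18, KRT19, EPCAM and CDH1 were at 23.7 to 348 FPKM in every condition, while KLK3, a marker of luminal prostate cells, was listed at 0. All 7 markers of leukocytes, endothelium and fibroblasts were below 1 FPKM in every condition. In RNA pooled from many cells, fewer cells with a transcript and less of it per cell cannot be told apart.

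MYC was the most abundant member in each condition. Scr had 77.6 FPKM of its RNA, CD24 KO libraries had 94.1 FPKM and those labelled RCC2 KO had 72.4 FPKM. Below, 12822 genes were compared, those that reached 1 FPKM in any condition, and of these 91.8%, 94.8% and 91.0% lay below MYC in these conditions. MYC was thus highest in CD24 KO, 1.21-fold over Scr, and RCC2 KO was close to Scr, at 0.932 of its level. The table places MYC on chromosome 8 from 128748315 to 128753680, in coordinates read as hg19.
MYCL, the paralog first found amplified in lung cancer, showed 2.45, 3.44 and 1.75 FPKM in Scr, CD24 KO and RCC2 KO, respectively. Like MYC it was highest in CD24 KO and lowest in RCC2 KO, at a far lower level. MYCN, the paralog of neuroblastoma and neuroendocrine prostate cancer, was listed at 0 in all 3 conditions and was not compared further. MYC therefore made up nearly all of the MYC family RNA in the table.

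MAX, the partner shared by activators and repressors, stood at 44.7 FPKM in Scr, against 44.0 in CD24 KO and 55.0 in RCC2 KO. Its value in CD24 KO was 0.984 of Scr, and in RCC2 KO it was 1.23-fold that of Scr. The table gives MAX a wide position on chromosome 14, from 65381079 to 65569413, which overlaps 7 other genes, among them FNTB, CHURC1 and RAB15, so its value depends on how the authors divided fragments there. MYC RNA was 1.74 times that of MAX in Scr, 2.14 times in CD24 KO and 1.32 times in RCC2 KO.

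Among the repressors, 3 of 4 were higher in the libraries labelled CD24 KO than in Scr. MXD4, on chromosome 4 from 2249160 to 2263739, had 14.8 FPKM in Scr, against 25.9 in CD24 KO and 14.9 in RCC2 KO. MNT, an antagonist of MYC found in most tissues, was at 4.58, 7.48 and 4.44 FPKM in the same order. MXD1, known for its rise as cells differentiate, was at 2.65, 4.85 and 3.64 FPKM. The CD24 KO values of MXD4, MNT and MXD1 were 1.75-fold, 1.63-fold and 1.83-fold those of Scr, while in RCC2 KO MXD1 was at 1.37-fold and MXD4 and MNT were near Scr. MXD3, the member of the family tied to S phase and dividing cells, showed 3.33, 3.22 and 2.44 FPKM in Scr, CD24 KO and RCC2 KO, respectively. It was nearly level between Scr and CD24 KO and lowest in RCC2 KO, and its position overlaps that of PRELID1.
MLX stood at 46.8 FPKM in Scr, against 32.3 in CD24 KO and 51.7 in RCC2 KO. It was the member that stood furthest below Scr in CD24 KO, at 0.690 of its level, and it overlaps PSMC3IP, which was at 26.1, 11.7 and 27.4 FPKM in the same order.

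The order of the levels in Scr was MYC, MLX, MAX, MXD4, MNT, MXD3, MXD1, MYCL and MYCN. MAX stood above MLX in both knockouts, and MXD3 stood just before MYCN in CD24 KO and just before MYCL in RCC2 KO. Whether neighbours in this order differ by more than libraries of a condition do could not be examined. The plot of FPKM by gene and condition shows the raised levels of MXD1, MXD4 and MNT in CD24 KO beside the small spread of MYC and MAX.

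**Figure D1:**
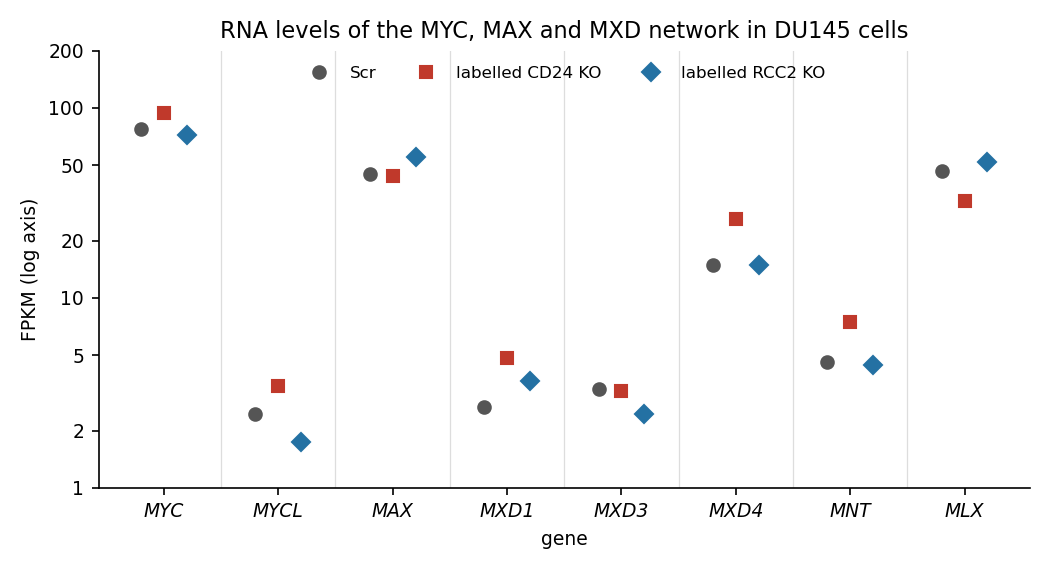
FPKM of 8 members (log axis) in Scr (circles), the libraries labelled CD24 KO (squares) and those labelled RCC2 KO (diamonds), with 1 value per condition and no error. MYCN, listed at 0, is not drawn; MXD4 stands at 14.8, 25.9 and 14.9 FPKM and MYC at 77.6, 94.1 and 72.4 FPKM.

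Differences between conditions were taken as log2(FPKM + 1), a scale that understates the change of genes with low values. MYCN was below the minimum, which left 8 of the 9 members. None of these 8 was at least 2-fold changed in CD24 KO, where 5.69% of all genes compared were, none in RCC2 KO (1.2% of all genes) and none between the knockouts (8.31% of all genes). At 1.5-fold, MXD1, MXD4 and MNT were higher in CD24 KO than in Scr, that is 3 of 8, against 9.55% of all genes. No member was 1.5-fold lower there (11.6% of all genes). In RCC2 KO no member passed 1.5-fold in either direction (5.27% of all genes). Between RCC2 KO and CD24 KO, MLX was 1.5-fold higher in RCC2 KO, 1 of 8 against 13.8% of all genes. MYCL, MXD4 and MNT were 1.5-fold lower there, 3 of 8 against 14.1%. Counts over 8 genes with 1 value each are a description of this table.

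In CD24 KO the log2 changes against Scr were 0.77 for MXD4, 0.68 for MXD1 and 0.60 for MNT, above those of 94.7%, 93.0% and 91.0% of the genes compared. MYCL was at 0.37 and MYC at 0.27. MLX was at -0.52, with 14.4% of genes lower. MAX and MXD3 were at -0.02 and -0.04, and both signs flipped with the scaling, to 0.19 and 0.13 when the columns were given a common sum.
In RCC2 KO the highest log2 changes against Scr were those of MXD1, at 0.35, and MAX, at 0.29, above those of 93.9% and 91.5% of genes. MXD3 and MYCL were lowest, both at -0.33. MLX was at 0.14, MYC at -0.10, MNT at -0.04 and MXD4 at 0.01. Both comparisons use the same Scr values, so a Scr value that lay low or high would move a member in both.
RCC2 KO set directly against CD24 KO does not use Scr. There MLX was 0.66 and MAX 0.32 higher on the log2 scale in RCC2 KO, and MXD4, MYCL, MNT, MYC, MXD1 and MXD3 had differences of -0.76, -0.69, -0.64, -0.37, -0.34 and -0.29. Among the members compared, MYC, MYCL and each repressor were thus lower in RCC2 KO than in CD24 KO, and MAX and MLX were higher. The scatter of both changes against Scr shows the repressors MXD1, MXD4 and MNT on the right side of the cloud of all genes and MLX on its left side, within the range of -0.84 to 0.78 that spans 5% to 95% of all genes in CD24 KO.

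**Figure D2:**
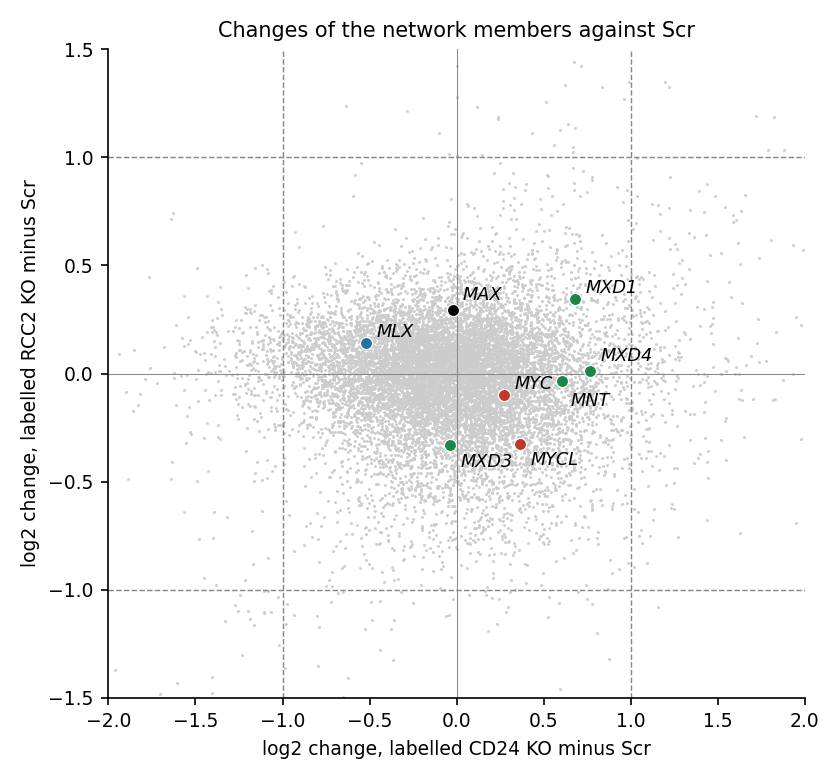
Log2 change of FPKM + 1 against Scr for 8 members (colored points) over all 12822 genes compared (grey): horizontal axis the libraries labelled CD24 KO, vertical axis those labelled RCC2 KO, dashed lines the 2-fold minimum. The axes leave out 110 genes; MXD4, MXD1 and MNT lie at 0.77, 0.68 and 0.60 on the horizontal axis, and no member crosses a dashed line.

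The balance of MYC and its antagonists was read within each column, where the scaling of the library cancels. MXD1, MXD3, MXD4 and MNT together were at 25.4 FPKM (Scr), 41.4 FPKM (CD24 KO) and 25.4 FPKM (RCC2 KO). MXD4 alone made up 58.4%, 62.5% and 58.6% of these sums. MYC was 3.06 times its summed antagonists in Scr, 2.27 times in CD24 KO and 2.84 times in RCC2 KO. The ratio was lowest in CD24 KO although MYC itself was highest there, as the summed antagonists differed from Scr by more than MYC did. With a pseudocount of 1, the log2 difference of this ratio from Scr was -0.41 in CD24 KO and -0.10 in RCC2 KO. The antagonists relative to MAX were at 0.568 in Scr, 0.942 in CD24 KO and 0.462 in RCC2 KO. These are ratios of RNA, and the proteins were not measured here.

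**Figure D3:**
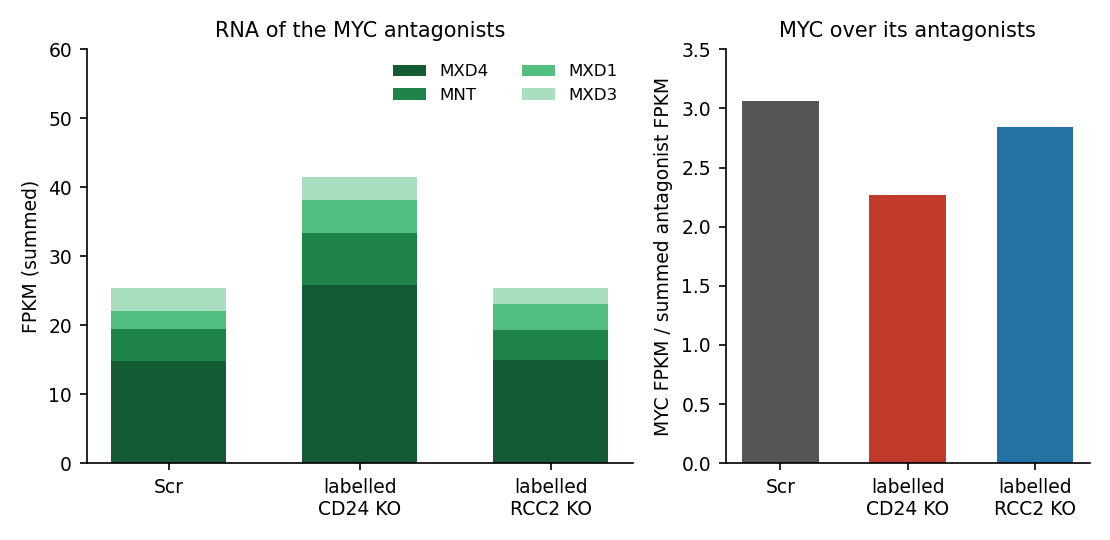
Left, FPKM of MXD4, MNT, MXD1 and MXD3 stacked for each condition, which sum to 25.4, 41.4 and 25.4 FPKM; right, MYC FPKM divided by that sum, at 3.06, 2.27 and 2.84. Each bar comes from 1 value per gene and condition with no error, and the CD24 KO bar is the highest on the left and the lowest on the right.

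Of 4 further genes of the network, 2 were higher and 2 lower in CD24 KO than in Scr, where 47.0% of all genes were higher. MXI1, the MXD protein that is not among the 9 genes, had 16.1 FPKM in Scr, against 28.2 in CD24 KO and 12.3 in RCC2 KO, and MGA, a large MAX partner that represses, was at 8.23, 6.99 and 8.69 FPKM. With MXI1 and MGA added to the antagonists, MYC was 1.56 times their sum in Scr, 1.23 times in CD24 KO and 1.56 times in RCC2 KO. MXI1 was thus higher in CD24 KO, as MXD1, MXD4 and MNT were, with a log2 change of 0.77, whereas MGA was lower there, at -0.21.
MLXIP, which encodes the MondoA partner of MLX, showed 9.18, 6.30 and 10.6 FPKM in Scr, CD24 KO and RCC2 KO, respectively. MLX and MLXIP kept nearly the same proportion, with MLX at 5.10, 5.13 and 4.88 times MLXIP. MLXIPL was low throughout, at 1.26, 1.95 and 0.634 FPKM. Of 4 genes listed as targets of MLX with MondoA or ChREBP, 3 were compared, and they did not move together. TXNIP, which restrains glucose uptake, was at 82.9, 34.7 and 7.52 FPKM, and the table gives it a position of over 2 megabases on chromosome 1 that makes its value less certain. ARRDC4, its arrestin relative, was at 0.109, 1.53 and 0.207 FPKM, and KLF10 at 36.9, 22.2 and 36.7 FPKM.

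The E-box was looked for in RefSeq promoters (GRCh38.p14, 250 bases before to 50 bases after the start of a gene), as the sequence CACGTG, which reads the same on both strands. The table of promoters held 8 of the 9 members, and MYC had no entry. MXD4, MNT and MLX had 1 match each, and MYCN, MYCL, MAX, MXD1 and MXD3 had none. Matches were found in 7.26% of all 35116 promoters and in 12.6% of the genes compared that had a promoter, 1229 of 9725. The matches of the 3 members are shown with their surroundings, because MXD4 and MNT were the repressors with a match that were higher in CD24 KO, while MLX was lower there. The stretches are on the strand of the gene, and capitals mark the E-box:
MXD4 (chr4:2262295-2262359, minus strand): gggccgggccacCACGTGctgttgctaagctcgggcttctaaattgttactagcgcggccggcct
MNT (chr17:2401188-2401310, minus strand): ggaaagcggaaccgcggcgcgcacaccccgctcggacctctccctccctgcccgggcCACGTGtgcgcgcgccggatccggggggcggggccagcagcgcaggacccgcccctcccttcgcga
MLX (chr17:42566990-42567067, plus strand): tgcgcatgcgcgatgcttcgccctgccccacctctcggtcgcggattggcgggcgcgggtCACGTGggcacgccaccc
The E-box began 238 bases before the start of MXD4, 193 bases before that of MNT and 50 bases before that of MLX. Members with the motif thus lay on both sides of Scr in CD24 KO, and MXD1, which has no match in this window, was higher.

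MYC target genes were compared as a list of 59 genes, of which 58 reached the minimum. It was written from memory after the hallmark MYC targets V2 without MYC, so it may differ from the published set. In CD24 KO, 56 of the 58 were below Scr and 2 above it, while 52.9% of all genes compared were lower. The median log2 change was -0.78, against -0.03 over all genes, and 17 genes lay 2-fold or more below Scr, where 3.03% of all genes were. NOP56, a core protein of box C/D snoRNPs, stood at 103 FPKM in Scr, against 32.9 in CD24 KO and 120 in RCC2 KO. NPM1, the nucleolar chaperone nucleophosmin, was at 488, 162 and 483 FPKM in the same order. SRM, spermidine synthase, was at 91.2, 30.2 and 86.6 FPKM. These 3 genes had log2 changes of -1.61, -1.58 and -1.57 in CD24 KO, followed by UTP20 (-1.45) and NOP16 (-1.35) of ribosome assembly and MCM5 (-1.44) of the replicative helicase. SLC29A2 and TMEM97 were the 2 genes that were higher, at 0.09 and 0.15.
A second list of 30 classical MYC targets, which shares no gene with the first, had 27 of 28 compared genes lower in CD24 KO and a median log2 change of -0.70. CDC25A, a phosphatase that starts S phase, had 9.77 FPKM in Scr, against 2.11 in CD24 KO and 9.58 in RCC2 KO. NME1, NCL, ODC1, LDHA and EIF4A1 had log2 changes of -1.46, -1.25, -1.21, -1.21 and -1.17 in CD24 KO. SLC1A5, a glutamine carrier, was the 1 gene that was higher, at 0.03.
Target genes were thus lower where MYC RNA was 1.21-fold higher and where the antagonists were higher. Many of these genes also belong to cell growth and division in general, and these values do not show that MXD1, MXD4 or MNT act on them. As a choice made after the values had been seen, 7 genes taken as replication, division and cell cycle genes were left out. The V2 median in CD24 KO was then -0.78 over 51 genes. With 56 of the 58 genes lower, this removal could shift the median only slightly, so no conclusion is drawn from it. RCC2, itself a gene of mitosis, was at 14.2 FPKM in the CD24 KO column, where KRT8 and KRT18, which the table places at 1 shared position, were also at least 2-fold lower, while KRT19 and CDH1 were higher. The 5 epithelial markers had a summed level of 799 FPKM in Scr, against 500 in CD24 KO and 843 in RCC2 KO. The part of such general differences in the target lists was not tested.

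In the libraries labelled RCC2 KO, the V2 targets differed little from Scr. Of the 58 genes, 46 were higher and 12 lower, where 49.3% of all genes were higher, and the median log2 change was 0.10. None was 2-fold changed, and the changes ran from -0.27 to 0.46. The classical targets had 22 genes higher and 6 lower, with a median of 0.07. Set directly against CD24 KO, 56 of 58 V2 targets were higher in RCC2 KO, with a median log2 difference of 0.90 and 26 genes at least 2-fold higher, where 4.02% of all genes were. All 28 classical targets were above CD24 KO in the RCC2 KO column, and their median was 0.82. The difference between the knockouts in MYC targets thus lay almost wholly in the CD24 KO values, since those of RCC2 KO were near Scr.

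Genes reported to be repressed through MYC were compared in the same way, as a list of 13 genes of which 11 were compared. In CD24 KO, 8 genes were higher and 3 lower, with a median log2 change of 0.48, where 47.0% of all genes compared were higher. GADD45A, which answers DNA damage and arrests growth, showed 27.9, 75.4 and 26.9 FPKM in Scr, CD24 KO and RCC2 KO, respectively. CDKN2B, the CDK inhibitor p15, was at 5.18, 13.8 and 5.03 FPKM. CDKN1C, the CDK inhibitor p57, was at 0.941, 2.99 and 0.244 FPKM. CDKN1A and CDKN1B were near Scr, with log2 changes of -0.13 and 0.06. NDRG1, which also answers hypoxia, was lower in both knockouts, at 156, 78.5 and 69.1 FPKM. In RCC2 KO, 3 genes of the list were higher and 8 lower, with a median of -0.16, where 50.6% of all genes were lower. The plot of target genes shows both target lists below the box of all genes in CD24 KO and near it in RCC2 KO.

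**Figure D4:**
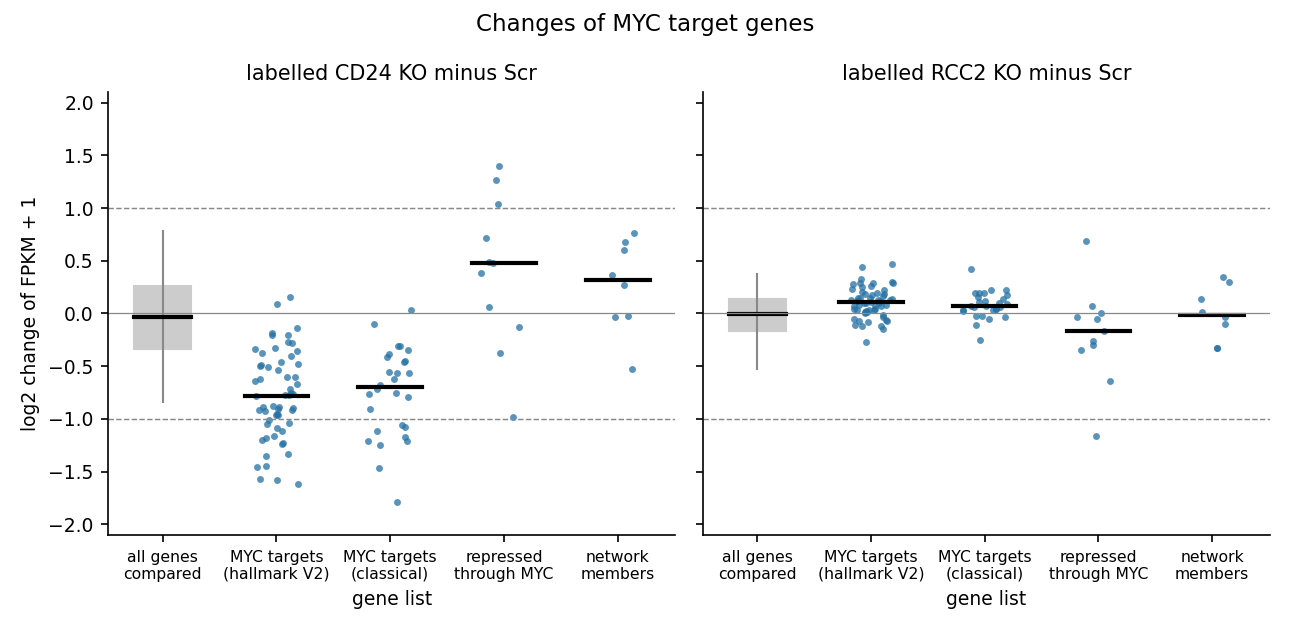
Log2 change of FPKM + 1 (vertical axis) for each gene of 4 lists (points, with the median as a black bar) in the libraries labelled CD24 KO (left) and RCC2 KO (right) against Scr; the box of all genes spans its middle 50% and the line 5% to 95%. In CD24 KO the V2 and classical target medians are at -0.78 and -0.70 and the repressed genes at 0.48; in RCC2 KO the same medians are at 0.10, 0.07 and -0.16.

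The E-box was found in 24 of the 46 V2 targets with a promoter in the table, 52.2%, against the 12.6% given above for compared genes with a promoter. In CD24 KO all 24 targets with an E-box were below Scr (median log2 change, -0.93), and 21 of the 22 without it were lower, with a median of -0.61. Over all compared genes with a promoter in the table, the 1229 with an E-box had a median of -0.10 and the 8496 without it one of -0.05. Whether the motif has a part in these changes was not tested. Of the 6 V2 targets named, SRM and UTP20 had a match, shown for comparison with the members:
SRM (chr1:11060152-11060268, minus strand): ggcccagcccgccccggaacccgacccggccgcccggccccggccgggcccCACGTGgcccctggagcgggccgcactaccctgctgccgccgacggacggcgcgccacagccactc
UTP20 (chr12:101280035-101280104, plus strand): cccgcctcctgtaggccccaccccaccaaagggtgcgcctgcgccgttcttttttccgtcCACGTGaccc
Their E-boxes began 199 and 10 bases before the start. NOP56, NPM1 and NOP16 had no match in this window, and MCM5 had no entry.

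The machinery around MYC was compared through 3 more lists. Of 14 cofactors of MYC and the MXD proteins, 12 were lower than Scr in CD24 KO (52.9% of all genes) and 2 higher. Their median log2 change was -0.33. RUVBL1, an ATPase of the TIP60 and INO80 complexes, stood at 101 FPKM in Scr, against 49.4 in CD24 KO and 85.4 in RCC2 KO, and TRRAP, the scaffold that MYC binds, at 7.70, 4.57 and 8.21 FPKM. The corepressor scaffold SIN3A, through which the MXD proteins act, was at 27.5, 27.1 and 24.1 FPKM and thus near level. Of 16 genes that act on the MYC protein, 13 were lower in CD24 KO (52.9% of all genes), with a median of -0.27. PLK1 (also on the V2 list), AURKA and CIP2A (KIAA1524 in the table), which stabilize MYC, had log2 changes of -1.24, -0.72 and -0.84. SKP2, a ligase that both activates MYC and marks it for degradation, was at -1.19. FBXW7, the ligase that reads phosphorylated MYC, was at 2.85, 2.38 and 4.38 FPKM, highest in RCC2 KO. GSK3B, which phosphorylates MYC for FBXW7, had 15.8 FPKM in Scr, against 22.8 in CD24 KO and 17.0 in RCC2 KO. In RCC2 KO the medians of the cofactors and of the turnover genes were -0.02 and 0.05.

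Of 12 factors known to act on MYC transcription, 11 were compared. In CD24 KO 10 of them were lower (52.9% of all genes), with a median log2 change of -0.49. FUBP1, which binds the far upstream element of MYC, showed 105, 37.0 and 107 FPKM in Scr, CD24 KO and RCC2 KO, respectively. TCF7L2, the main DNA-binding partner of β-catenin in epithelium, was at 24.7, 13.2 and 22.6 FPKM, and CTNNB1, which encodes β-catenin, at 63.1, 61.8 and 67.3 FPKM. E2F1 was at 14.9, 9.60 and 15.3 FPKM. STAT3 was the 1 factor that was higher in CD24 KO, at 0.18 on the log2 scale. MYC RNA was thus highest in the condition in which most of these factors were lowest. In RCC2 KO their median was -0.02.
The genes on either side of MYC on 8q24 varied in their changes. PVT1, the noncoding RNA next to MYC, stood at 8.23 FPKM in Scr, against 10.9 in CD24 KO and 8.92 in RCC2 KO. FAM84B was at 4.45, 15.1 and 4.67 FPKM, FAM49B at 38.6, 38.6 and 40.4 FPKM and ASAP1 at 57.0, 39.7 and 51.2 FPKM. TRIB1, at 16.1, 20.5 and 11.8 FPKM, and SQLE, at 53.3, 118 and 34.2 FPKM, had the order of MYC, highest in CD24 KO and lowest in RCC2 KO. Of 7 compared neighbours, 5 were higher in CD24 KO and 2 lower, where 47.0% of all genes were higher. FAM49B counts among the 5 with a log2 change of only 0.0003. The median log2 change of the 7 neighbours was 0.33.

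Among 1826 genes with a mean FPKM within 2-fold of that of MYC, 273 (15.0%) were, like MYC, highest in CD24 KO and lowest in RCC2 KO. The nearest in the pair of log2 changes against Scr included NIPSNAP2, GPSM2, MBIP and C2orf74, at distances of 0.01 to 0.03. MBIP had 76.6 FPKM in Scr, against 92.5 in CD24 KO and 70.3 in RCC2 KO. With 3 values for each gene, this likeness is a description.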

How the data were processed

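The authors deposited 1 table of FPKM values, 1 per gene and condition, with none per library. The labels' processing notes name HISAT, StringTie, Cufflinks and GATK, without versions or roles; the build and annotation are not given in the sources used here. The labels name an Illumina kit with total RNA as input, whereas the methods describe stranded mRNA libraries. Of the 9 member positions, 1 overlapped its GRCh38 position in RefSeq, so coordinates were read as hg19, with starts counted from 1. FPKM carry no counts, so depth and precision are unknown, and neither an interval nor a test was possible.

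Genes that reached 1 FPKM in any column were compared as differences of log2(FPKM + 1), with 2-fold and 1.5-fold minimums. All 9 members were named. From each list, up to 6 genes past 2-fold that reached 5 FPKM in either column were named, or any gene in lists of at most 16. CIP2A was matched by its older symbol, the only gene that needed this. The members and lists were chosen with earlier results of these data known, and the lists were written from memory. Printed promoter stretches leave out exons of GENCODE 29. Alternatives were other pseudocounts (0.1 and 5), filters and scalings (median centring, quantile normalization, a common sum). Of the genes that these rules name, 2 are not reported here. Calculations were tested on simulated data. Python 3.11.15, NumPy 2.4.6, pandas 2.3.3 and matplotlib 3.10.9 were used.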

Additional observations from a re-analysis of the deposited data

How the results depend on the processing

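No paired analysis was possible because the table gives 1 value per gene and condition. Leaving out a replicate could not be done for the same reason. With a 1.5-fold minimum, 3 members passed in CD24 KO and 4 between the knockouts, where none passed 2-fold; in RCC2 KO none passed either minimum. With a common sum of FPKM for the columns, the median log2 change of the V2 targets in CD24 KO was -0.58; the same scaling moved the median of all genes there from -0.03 to 0.15. With RNR2 left out of the sum, an alternative chosen after seeing the data, these medians were -0.66 and 0.07. Over the alternatives tried, that V2 median ran from -0.82 to -0.58 in CD24 KO, from 0.10 to 0.12 in RCC2 KO and from 0.72 to 0.94 between the knockouts. The change of MYC over its summed antagonists kept its sign in each comparison, although in RCC2 KO it was -0.0028 once MXI1 and MGA were added. In CD24 KO the log2 change of MYC ran from 0.26 to 0.49, that of MXD4 from 0.64 to 0.97, that of MNT from 0.38 to 0.79, that of MXD1 from 0.36 to 0.85 and that of MLX from -0.53 to -0.31. Of the member changes, only those of MAX and MXD3 in CD24 KO changed sign. In CD24 KO with a common sum, 9 of 14 cofactors and 11 of 16 turnover genes were lower, with medians of -0.14 and -0.07. For the factors acting on MYC transcription these were 9 of 11 and -0.30. The median of all genes with this scaling was 0.15, and the share of all genes that were lower was not counted for it. The spread between libraries and the depth are unknown, so small differences such as that of MYC in RCC2 KO cannot be set against an error.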
